A study of Mus musculus with 3 samples.

Results

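The 9 genes described here encode complement proteins of blood plasma that are made mainly by the liver: C3, C4b, Hc, C6, C8a, C8b, C9, Cfb and Cfi. They were found as the array probes whose transcript accession maps to one of these symbols, which gave 11 probes for 9 of the 20577 genes that could be named on the array. Their RNA was measured in 3 pools of female mouse cells, each made from 5 samples and hybridised to 1 one-colour (Cy3) array, so every group is a single array and no spread between samples can be estimated. The MF pool held primary fibroblasts from spleens remodelled with SiO2 that had received the control lentivirus LV-NC. The iHep pool held cells called hepatocyte-like, from such fibroblasts given LV-3TF, a lentivirus whose 3 transcription factors the labels do not name. MF and iHep were both collected after 14 days of culture that followed transduction, while the PH pool held freshly isolated primary hepatocytes as a positive control. The strain and age of the mice are not given in the sources used here, and pooling hides how the 5 samples of a group differed. The labels name a blood RNA kit with removal of globin message for all groups. The MF array was scanned separately from the other two, so scan and group cannot be told apart in comparisons with MF.

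Complement is a cascade of plasma proteins that coats microbes, draws in leukocytes and lyses membranes. The classical and lectin pathways cleave C4 and C2, the alternative pathway uses factor B, and all of them meet at the cleavage of C3 and then of C5, the product of the mouse gene Hc. C5b, C6, C7, C8 and C9 then assemble into the membrane attack complex, and factor I shuts the cascade down by cutting C3b and C4b. Hepatocytes secrete most of these proteins, several of them more strongly in the acute phase response to interleukins, whereas macrophages and fibroblasts are known to make C3, C4, factor B and the C1 subunits locally.

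The promoter sequences of 4 of the genes are shown first, because they stand for different patterns in the data. C3 had nearly equal levels in MF and iHep, Hc was higher in iHep than in MF, and C8a and C9 were detected in PH only. Each run is the 250 bases before the transcription start from RefSeq on build GRCm38.p6, read 5′ to 3′ on the gene's own strand. Capitals mark matches to a C/EBP motif (TTNNGNAA) or a STAT motif (TTCNNNGAA), factors of the acute phase response, searched on both strands. The C3 run lies at chr17:57228137-57228386 on the minus strand, Hc at chr2:35061413-35061662 on the minus strand, C8a at chr4:104876399-104876648 on the minus strand and C9 at chr15:6445096-6445345 on the plus strand.
C3: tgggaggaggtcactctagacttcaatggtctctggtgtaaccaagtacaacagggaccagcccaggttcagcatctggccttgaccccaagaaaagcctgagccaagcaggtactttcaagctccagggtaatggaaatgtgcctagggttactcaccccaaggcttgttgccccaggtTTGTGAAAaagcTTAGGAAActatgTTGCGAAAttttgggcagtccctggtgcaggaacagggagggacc
Hc: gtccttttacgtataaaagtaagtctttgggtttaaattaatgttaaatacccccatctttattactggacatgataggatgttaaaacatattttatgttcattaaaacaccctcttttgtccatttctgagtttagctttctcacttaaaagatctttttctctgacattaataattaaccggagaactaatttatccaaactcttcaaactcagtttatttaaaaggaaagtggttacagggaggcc
C8a: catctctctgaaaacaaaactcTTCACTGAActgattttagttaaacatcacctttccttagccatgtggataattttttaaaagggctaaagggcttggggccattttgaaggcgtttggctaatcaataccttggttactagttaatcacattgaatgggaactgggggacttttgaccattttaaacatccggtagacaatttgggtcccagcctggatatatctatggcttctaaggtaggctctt
C9: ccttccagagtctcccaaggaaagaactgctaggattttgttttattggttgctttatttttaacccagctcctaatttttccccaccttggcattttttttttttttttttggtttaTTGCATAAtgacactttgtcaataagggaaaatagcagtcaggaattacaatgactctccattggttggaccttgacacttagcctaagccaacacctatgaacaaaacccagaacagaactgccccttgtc

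The C3 promoter held 3 C/EBP matches, at -70 to -63, -58 to -51 and -45 to -38 from the start. C9 had 1 C/EBP match at -132 to -125, and C8a had 1 STAT match at -228 to -220. The Hc run held no match to either motif. Of the 6 genes with a promoter entry, which also include C6 and C8b, 4 held the C/EBP motif, against 36.8% of the 32851 promoters in the table. The STAT motif was in 1 of the 6 and in 7.02% of all promoters. The longer NF-kB motif was in 0 of the 6 and in 1.41% of all promoters. None of these motifs overlapped another in the runs shown. The matches describe these letters only, and no binding was measured.

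Levels are given as log2 of the processed spot signal minus the array's own 75th percentile, so 0 is that percentile, and each gene is compared only with itself across arrays. The 75th percentile signal was 544.3 in MF, 3751.5 in iHep and 2080.9 in PH. A probe counts as detected when the scanner software marks it well above background. The lowest detected probe sat at -6.30 in MF, -7.32 in iHep and -6.89 in PH, and where 1 side of a comparison was not detected the fold is a bound against the higher of that level and the dim reading. All 9 genes were detected in PH, and the same 5 genes, C3, C4b, Hc, C6 and Cfb, in MF and iHep. C8a, C8b, C9 and Cfi were not well above background in MF or in iHep.

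**Figure D1:**
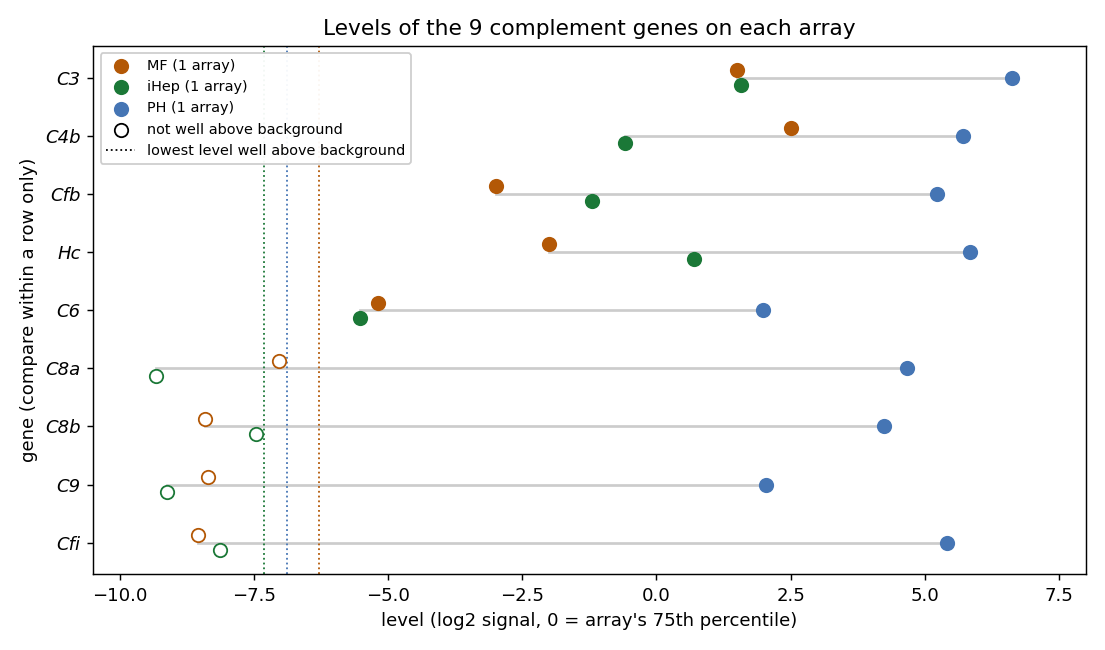
Levels of the 9 complement genes (log2 signal, 0 = the array's 75th percentile) in MF, iHep and PH, 1 array each. Open circles were not well above background and dotted lines mark each array's lowest detected level. PH is the highest point in each of the 9 rows, and 4 genes have open circles in MF and iHep.

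C3, on which all activation pathways converge, was at nearly the same level in MF and iHep and far higher in PH. Its level was 1.51 in MF, 1.57 in iHep and 6.63 in PH. This probe was printed in 10 spots per array, which gave a spot SD of 0.035, 0.053 and 0.124 for the 3 arrays. The spots ran from 1.45 to 1.56 in MF and from 1.46 to 1.64 in iHep, so these overlap, and from 6.51 to 6.91 in PH, above every spot of the other arrays. iHep exceeded MF by 0.06 (1.04-fold) in the mean of 10 spots. The SD of a difference between single spots was 0.064, and the spotting error of a difference between 10-spot means is smaller. Both measure spotting error on 1 pool and not variation between cultures. PH was 34.8-fold above MF and 33.4-fold above iHep. The second C3 probe read 0.93, 0.51 and 6.52, that is 1.34-fold lower in iHep than in MF and 48.0-fold higher in PH than in MF. The 2 probes thus differ in the sign of the small iHep difference and have the same order for PH. On the used probe MF held 2.87% of the PH level and iHep 3.0%.

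C4b, the C4 protein that the classical and lectin pathways cleave, was the 1 gene of the 9 that was lower in iHep than in MF by at least 2-fold. Its level was 2.51 in MF, -0.59 in iHep and 5.71 in PH. iHep was lowest, MF in between and PH highest. iHep was 8.58-fold below MF (-3.10 on the log2 scale), and 6.53% of all genes compared were at least as low. PH was 9.17-fold above MF, the smallest such difference of the 9 genes, and 78.7-fold above iHep. MF held 10.9% of the PH level and iHep 1.27%. C4a, a near-identical paralogue, has no named probe in this table, and signal from it on the C4b probe cannot be told apart from C4b.

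Cfb, factor B, supplies the protease of the alternative pathway convertase. Its level was -3.0 in MF, -1.21 in iHep and 5.23 in PH, an order of MF, iHep and PH. iHep was 3.46-fold above MF (1.79 on the log2 scale), and 8.64% of genes were at least as high. PH was 299-fold above MF and 86.3-fold above iHep, the first of which was 186-fold after normexp. At the scaling used here iHep held 1.16% of the PH level against 0.335% in MF.

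Hc encodes C5, whose cleavage starts the terminal pathway. Its level was -2.0 in MF, 0.70 in iHep and 5.84 in PH. Among the 5 genes detected in MF and iHep iHep stood highest over MF for Hc, by 6.48-fold (2.70 on the log2 scale), and 3.61% of genes compared were at least as high. PH was 228-fold above MF and 35.2-fold above iHep. MF held 0.438% of the PH level and iHep 2.84%.

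C6, the first protein to join C5b in the membrane attack complex, read low in MF and iHep. Its level was -5.20 in MF, -5.52 in iHep and 1.99 in PH. The difference of -0.32 between iHep and MF (1.25-fold) was above the 0.133 SD that spots of repeatedly printed probes gave and below the 0.841 SD between probes of 1 gene. The former SD is pooled over 248 detected probes of any brightness. C6 had 1 spot per array and was dim in both, so its own spotting error was not measured. PH was 146-fold above MF and 182-fold above iHep, or 29.2-fold and 91.1-fold after normexp. MF and iHep held 0.685% and 0.549% of the PH level.

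The remaining membrane attack genes were measured in PH alone. C8a and C8b encode the alpha and beta chains of C8, which anchor the complex in the membrane, and C9 forms the pore. C8a read -7.03 in MF and -9.34 in iHep, neither detected, and 4.67 in PH, which is at least 2012-fold above MF and at least 4081-fold above iHep. The second C8a probe was likewise detected in PH only, at 2.22. C8b read -8.41 and -7.46, neither detected, and 4.24 in PH, at least 1497-fold above MF and at least 3037-fold above iHep. C8a and C8b lie next to each other on chromosome 4 in RefSeq order and were both detected on the PH array only. C9 read -8.36 and -9.12, neither detected, and 2.04 in PH, at least 326-fold above MF and at least 660-fold above iHep. The bounds depend on the setting. After normexp PH exceeded MF by at least 204-fold for C8a, 185-fold for C8b and 37.0-fold for C9, and the bounds of iHep from PH were -10.09, -9.63 and -7.59 on the log2 scale. The dimmer C8a probe gave -9.54 for that last comparison. For these 3 genes no fold between iHep and MF can be formed, and the readings below detection have no order.

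Cfi, factor I, is the protease that inactivates C3b and C4b. It read -8.55 in MF and -8.14 in iHep, neither detected, and 5.42 in PH. PH was at least 3376-fold above MF and at least 6846-fold above iHep, the highest bounds among the 9 genes. After normexp these bounds were 458-fold for PH over MF and -11.05 on the log2 scale for iHep over PH. At the scaling used here the upper limit that the bounds set on iHep was 0.0146% of the PH level for Cfi. It was 0.0245% for C8a, 0.0329% for C8b and 0.151% for C9. The smaller bounds after normexp set higher limits for all of them. A lower signal in a pool of cells can come from fewer expressing cells or from less RNA per cell, which arrays of pooled RNA cannot tell apart.

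A gene was counted as higher or lower at 2-fold or more. Between iHep and MF, 2 of the 5 comparable genes were higher, Hc and Cfb, against 19.9% of the 17145 genes compared, and 1 was lower, C4b, against 23.6%. The other two, C3 and C6, were within 2-fold. The median of the 5 was 0.06, beside 0.00 for all genes compared. These are counts over 5 genes beside sizeable background shares, and nothing is read from them about the list. Between PH and MF all 9 genes were higher, against 30.9% of 17766 genes, and 0 were lower, against 25.4%. Their median was 8.22 with bounds included and 7.19 over the 5 detected on both arrays, beside 0.04 and -0.18 for all genes. The PH array also carried pancreas acinar markers (8 of 8 higher than in MF) and endothelial markers (9 of 10 higher), and their part in these values was not tested. Between iHep and PH all 9 were lower, against 36.0% of 17988 genes, and 0 were higher, against 23.2%. The median was -7.51 with bounds and -6.30 over the 5, beside -0.30 and -0.15 for all genes. Comparisons with a shared array are not independent of each other, and all 3 here share arrays in pairs.

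**Figure D2:**
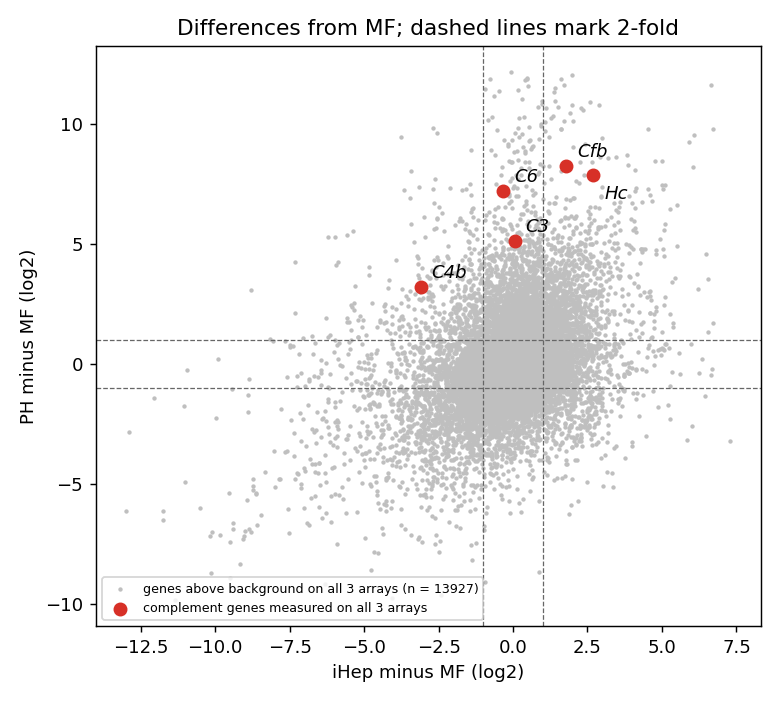
Difference of iHep from MF (horizontal, log2) against difference of PH from MF (vertical, log2) for 13927 genes detected on all 3 arrays, in grey, and the 5 complement genes detected on all 3, in red. Both axes share the MF array, so the shape of the cloud is not read. C4b sits left of the 2-fold line, C3 and C6 between the lines, and Cfb and Hc right of them.

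The direction of the array as a whole depended on the scaling, and the split of calls is given for that reason. Of genes called between iHep and MF, 45.7% were higher, and 27.6% with limma's normexp background correction, which moved the median of all genes by -0.73. Between PH and MF the share was 54.9%, against 38.9% with normexp (shift -0.62), 43.2% with quantile normalization (shift -0.31) and 42.0% in the authors' processed values (shift -0.32). Between iHep and PH it was 39.2%, against 54.9% with quantile normalization (shift 0.51) and 55.7% in the authors' values (shift 0.52). Of the 9 genes, none changed direction under a rescaling. Between iHep and MF, over all the settings tried, Hc lay between 2.25 and 2.71, Cfb between 1.11 and 1.81, and C4b between -3.10 and -3.07. C6 was between -1.64 and -0.22, with normexp giving the low end, so that under normexp 2 of the 5 genes were lower by at least 2-fold. The normexp setting adds a fixed offset of 50, while the 75th percentile signal was 544.3 in MF and 3751.5 in iHep. The C6 signal was 14.82 in MF and 81.89 in iHep. Relative to the percentile, the offset thus lifts a dim MF reading more than a dim iHep reading. How much of each normexp shift comes from it was not tested. C3 ranged from -0.42 to 0.09, the low end being its second probe.

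**Figure D3:**
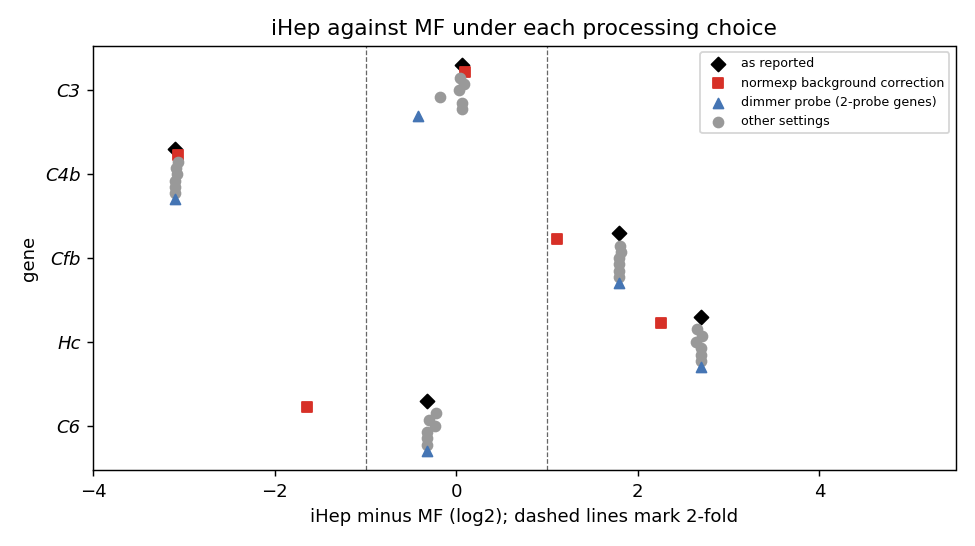
Difference of iHep from MF (log2) for the 5 complement genes detected on both arrays, under each processing setting, with dashed lines at 2-fold. Hc and Cfb stay right of the upper line, C4b stays left of the lower line, C3 stays between them, and C6 crosses the lower line under normexp only.

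Marker genes of the cells were read on the same arrays. PH had all 11 hepatocyte markers detected, with Serpina1a at 6.70. In iHep 8 of the 11 were detected, none above the -2.99 of Apob, while Apoa1, Pck1 and Arg1 were not. In MF 6 of the 11 were detected. Between iHep and MF 1 of 8 comparable hepatocyte markers was higher, Apob, and 0 were lower (median 0.32), against 19.9% and 23.6% of all genes. Over the settings 0 to 2 were higher, 0 to 2 lower, and the median ran from -0.79 to 0.54. The listed hepatocyte markers in iHep were thus far below their PH levels (median -10.02 over 11 genes). The name hepatocyte-like is the label's, and these markers do not by themselves bear it out. MF had all 12 fibroblast markers detected, with Col1a1 at 7.09, and 11 of the 12 were lower in iHep (median -2.82). MF also had 10 of 11 macrophage markers detected, with Ctss at 4.69, and 9 of 10 were lower in iHep (median -5.23), their summed signal being 58.86 times the 75th percentile signal in MF, 2.3 in iHep and 82.76 in PH. PH also carried 8 of 8 pancreas acinar markers, with Pnlip at 6.56, 10 of 10 endothelial markers, with Clec4g at 4.92, and 11 of 11 neutrophil and lymphocyte markers, with Cd4 at 5.69. Of the same lists, in that order, iHep had 7 of 8, 6 of 10 and 8 of 11 detected. MF had 2 of 8, 8 of 10 and 7 of 11 detected. The median level of the pancreas acinar markers was -5.65 in iHep and 5.38 in PH. Stellate markers were detected for 8 of 8 genes in PH, up to 0.66 for Colec11, and cholangiocyte markers for 8 of 8, up to 0.81 for Sox9. Between iHep and MF 5 of 8 endothelial markers, 5 of 5 stellate markers, 1 of 6 cholangiocyte markers, 1 of 8 neutrophil and lymphocyte markers and 0 of 7 pancreas acinar markers were lower, while 1, 0, 3, 2 and 2 were higher. The part of these other cells in the complement values was not tested.

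Counts of other gene lists between iHep and MF are read beside 19.9% higher and 23.6% lower among all genes compared, and their ranges cover the settings tried with the 2-fold threshold. In these ranges, and in that of the hepatocyte markers, the number of genes compared changes with the setting. The detection filter and the authors' values drop genes, and admitting dim readings adds some, so a range does not count changed calls alone. List counts between PH and MF are read beside 30.9% higher and 25.4% lower. Those between iHep and PH are read beside 23.2% higher and 36.0% lower. The genes that start the classical pathway stood lower in iHep than in MF for 6 of 9 members and higher for 0 (median -3.49). Over the settings 4 to 7 were lower and the median ran from -3.49 to -1.78. C1qc and C1qa, chains of the C1q recognition protein that macrophages are known to make, were not detected in iHep, and were at least 4503-fold and at least 997-fold lower there than in MF, or by -10.29 and -8.08 on the log2 scale after normexp. Macrophage markers moved with them, as given above, and their part was not tested. C1ra, a C1 protease, was within 2-fold at -0.51, and so was C2 at -0.26. Between PH and MF 4 of the 9 were higher and 0 lower. Each of the 9 was lower in iHep than in PH. C2 lies next to Cfb in RefSeq order, and between iHep and MF C2 differed by -0.26 where Cfb differed by 1.79.

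Of the genes that start the lectin pathway, 1 of 5 comparable genes was higher in iHep than in MF and 2 were lower (median -0.47). Over the settings 1 was higher, 1 to 4 were lower and the median ran from -2.01 to 0.18. Masp2, the protease that cleaves C4 and C2 after mannose-binding lectin has bound, read -5.46 in MF, -1.63 in iHep and 3.24 in PH, so iHep was 14.2-fold above MF. Its 3 probes differed in size, with 3.83, 2.40 and 1.05 on the log2 scale, and normexp gave 1.60. Masp1 differed by 0.83, and by -1.26 under normexp. Colec11 was lower in iHep by 2.72-fold and Mbl2, mannose-binding lectin, by at least 2.31-fold. Between PH and MF 6 of 7 were higher, Mbl2 by 2981-fold (355-fold after normexp).

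Of the other alternative and terminal pathway genes, Cfp was lower in iHep than in MF and Cfd was detected in neither. C7 and C8g were within 2-fold at the scaling used here. Cfp, properdin, which stabilises the alternative convertase and is known from leukocytes, read 3.05 in MF, -1.05 in iHep and 3.07 in PH, 17.2-fold lower in iHep than in MF and 1.01-fold apart in PH and MF. Cfd, factor D, read -4.13 in PH, its single detected level. C8g, the third chain of C8, was detected on all arrays, at -2.73, -3.12 and 5.44, unlike C8a and C8b. It differed by -0.38 between iHep and MF, or by 1.03 on its dimmer probe, which is past 2-fold upward, and was 289-fold higher in PH than in MF. C7, the partner of C6, was low on all 3 arrays, at -5.66, -6.17 and -5.00, and within 2-fold between PH and MF, where C6 was 146-fold higher in PH. Between iHep and MF C7 differed by -0.51, or by -1.84 under normexp, which is past 2-fold downward.

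The other soluble regulators were split between iHep and MF, with 3 of 9 higher, 3 lower and 3 within 2-fold, and a median of 0.00. Over the settings 1 to 3 were higher, 2 to 4 lower, and the median ran from -0.68 to 0.88. Serping1, the C1 inhibitor, was 61.3-fold lower in iHep than in MF (36.8-fold after normexp). Clu, clusterin, an inhibitor of the membrane attack complex, was 8.56-fold higher at 3.92 against 0.82. C4bp, the cofactor for cutting C4b, was 4.08-fold higher, but by only 0.10 on the log2 scale under normexp. All 10 were higher in PH than in MF (median 7.93) and lower in iHep than in PH (median -8.29).

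Membrane regulators, which protect cells from their own complement, were lower in iHep than in MF for 5 of 6 members and higher for 0 (median -3.35). Over the settings 2 to 6 were lower, 0 or 1 higher, and the median ran from -3.89 to -2.49. The 2 came from keeping only probes detected on all arrays, which drops Cd55 and Cd59b, and the 6 from admitting dim readings. Cd55, decay accelerating factor, was not detected in iHep and at least 171-fold below MF (58.5-fold after normexp). Cd59b, an inhibitor of the membrane attack complex, was at least 4.06-fold lower. Cd55b was 32.6-fold lower on its brighter probe, whereas its dimmer probe gave 1.79 in the opposite direction. Cr1l, the rodent regulator also called Crry, was within 2-fold on every pair of arrays, at 2.43, 2.79 and 2.90 in MF, iHep and PH. Of the complement receptors, mostly leukocyte proteins, 7 of 9 were lower in iHep than in MF and 0 higher (median -4.85). Over the settings 3 to 8 were lower, 0 or 1 higher, and the median ran from -4.85 to -2.61. The 3 came from the authors' values, which lack C3ar1 and C5ar1. C5ar1, the C5a receptor, was at least 126-fold lower and C3ar1, the C3a receptor, 58.4-fold lower, or 42.8-fold and 24.1-fold after normexp. C5ar2 differed by -0.53, and Cr2 by 0.44, which became -0.94 under normexp. Macrophage markers were lower beside these receptors (9 of 10), and their part was not tested.

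Among 19 genes listed as cytokine input and liver factors, 7 were higher and 7 lower in iHep than in MF (median -0.67). Whether they regulate the 9 genes in these cells was not tested. Over the settings 5 to 7 were higher, 3 to 8 lower, and the median ran from -0.77 to -0.49. Hnf4a, a nuclear receptor that maintains hepatocyte identity, was 101-fold higher in iHep than in MF (16.8-fold after normexp), at 1.04 against -5.62, and was 31.0-fold lower in iHep than in PH. Cebpa, a liver factor of the C/EBP family, was 18.4-fold lower in iHep than in MF (12.0-fold after normexp), and Il6st, the shared receptor chain of interleukin 6, was 8.57-fold lower. Other acute phase proteins, secreted like the 9 genes, were higher for 6 of 19 members and lower for 3 (median 0.52). Among all genes compared, 19.9% were higher and 23.6% lower. Over the settings 3 to 9 were higher, 2 to 5 lower, and the median ran from 0.00 to 0.70. Lcn2, an iron-siderophore-binding protein, was 17.6-fold higher and Cp, the copper carrier ceruloplasmin, 17.2-fold higher. Fga, a fibrinogen chain, was 5.92-fold lower and Serpina3n, a protease inhibitor, at least 26.8-fold lower (13.6-fold after normexp). In PH all 20 were above MF (median 9.51), and all 20 were lower in iHep than in PH (median -9.62).

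The genes most like each of the 5 in pattern were found by the distance between their pairs of log2 differences (iHep from MF and PH from MF) over the 3 arrays, among 13927 genes. Closest to C3 were Tgm3 at a distance of 0.02, Nron at 0.14 and Hnf4aos at 0.16. Closest to C4b were Gbp8 at 0.22, Lilra6 at 0.32 and St3gal6 at 0.34. Hc was nearest to Cyp4b1 at 0.15, Cbs at 0.31 and Rnf125 at 0.57. These lists name genes with similar values and, with 3 arrays, nothing more. C6 was nearest to Kmo at 0.22, Cyp27a1 at 0.28 and Lcat at 0.33, and Cfb to Fam25c at 0.17, Gls2 at 0.27 and Itih2 at 0.49. Values of some genes beside the 9 on the chromosome are given for comparison, chosen after they were seen. AI182371, on one side of Hc, was above MF in PH by at least 7.01 on the log2 scale and differed by -6.70 between iHep and PH, beside 7.83 and -5.14 for Hc. Traf1, on the other side, was higher in iHep than in MF by 2.28 on the log2 scale, near the 2.70 of Hc, but exceeded MF in PH by 1.76 where Hc did by 7.83. Tnxb and Cyp21a1, beside C4b, differed by 0.96 and 0.85 between iHep and MF, where C4b differed by -3.10. Plcxd3 and Mroh2b, beside C6, were not detected on any array.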

How the data were processed

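Per the file headers, the deposited scanner intensity values are background-subtracted, detrended processed signals from Feature Extraction 11.0.1.1, whereas the submitters' processing notes name 9.1. A second table deposited by the authors gives 26049 probes as log2 values (medians 7.02, 7.01 and 7.07, correlation with the scanner values 0.9943 to 0.9982). Its scale and centring stay unknown, and it served as an alternative.

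Control spots and 190, 230 and 383 outlier spots (MF, iHep, PH) of 43020 were left out, and 0 were saturated. Signals were divided by the array's 75th percentile and logged. Of 39181 probes, 27076 had 1 symbol through a RefSeq table (GRCm38.p6), 0 had several and 12105 had none. For 5412 genes with more than 1 probe the brightest was used. With 1 array per group there is no test. The SD of a log2 difference between iHep and MF was 0.133 over repeated spots and 0.841 between probes of a gene. Detected genes numbered 14996, 16360 and 17379.

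All 9 genes are named. Of each other list the 2 highest and 2 lowest differences of iHep from MF are named, of marker lists the highest gene on each array or those that bear on a label, and the 3 nearest genes by pattern. Some genes that this rule picks are not reported here. Members and lists were chosen with earlier results of these data known. Alternatives were normexp (limma 3.58.1, R 4.3.3, offset 50, on median signals, since no mean signal column was used here), quantile and median scaling, the authors' values, the mean or dimmer of a gene's probes, 2 filters, and 1.5-fold and 4-fold thresholds. The comparison was tested on simulated data. Calculations used Python 3.11.15, numpy 2.4.6 and pandas 2.3.3.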

Additional observations from a re-analysis of the deposited data

How the results depend on the processing

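Over the counts and medians of the 9 genes, 78 values under alternatives stayed close to those reported (counts within 1.5 times, differences within the SD between probes of a gene) and 6 moved. Between iHep and MF, 1 gene was higher at a 4-fold threshold, and 2 were lower with normexp (C6 joined C4b) and 2 with dim readings admitted (9 genes compared). With only probes detected on all arrays, 5 genes were left, of which 5 were higher in PH than in MF and 5 lower in iHep than in PH, with a median of -6.30. That alternative removes the 4 genes detected in PH alone. Of the single values for the 9 genes 155 stayed close, 19 moved and 0 reversed. Of other genes and lists, the Cd55b difference of iHep from MF turned to 1.79 on its dimmer probe, chosen after seeing the data, and the stellate marker median of PH over MF (1.60) to -0.65 over probes detected on all arrays.

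With 1 array per group, no replicate was left out. Low signals limit C6 in MF and iHep, and signal over background sets the bounds for C8a, C8b, C9 and Cfi. No paired analysis was possible because each group has 1 array and the labels carry no replicate numbers.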
